A study of Homo sapiens with 9 samples.

Results

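The IFIT genes encode interferon-induced proteins with tetratricopeptide repeats, and 7 Illumina probes assigned to 4 of them (IFIT1, IFIT2, IFIT3 and IFIT5) are described here, out of 47317 probes on the array. The probes were chosen by gene family, with earlier results of these same arrays known, in which family members stood far above the control. The IFIT2 level, for example, was 4.32-fold to 45.0-fold above the negative control in 7 of 8 transfections and 0.791-fold of it in the one with miR-181a. Because of how the probes were chosen, every difference between a transfection and the control is a description and carries no test. The deposited files name probes by number only. The assignment of the 7 probes to genes came with the rule that defines the set and was not checked here against a probe sequence, so the exon or isoform each probe reads is not given.

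The cells were KYSE30, a cell line derived from a human squamous cell carcinoma of the esophagus, and all cultures received RNA by Lipofectamine and were harvested on day 3. The 9 groups, with 1 array each, were miR-32, miR-455, miR-181a, miR-181b, a miRNA combination, siPIK3R1, siPIK3R3, an siRNA combination and a negative control. PIK3R1 and PIK3R3, the named siRNA targets, encode regulatory subunits of the lipid kinase PI3K, and the series title asks how expression changes with these microRNAs or with PI3K knockdown. The sources used here do not say what RNA the negative control was, at what doses RNA was given, which arms of the microRNAs were used or what each combination held. With 1 array per group no value has a replicate error, and differences between arrays may be differences between cultures. In bulk RNA, more responding cells and more RNA per cell cannot be told apart.

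IFIT genes are among the most strongly induced targets of type I and type III interferons in many epithelial cells, and their transcripts are low at rest. Signaling from interferon receptors acts on their promoters through the interferon-stimulated response element, and IRF3 can act on some of the same promoters directly once a sensor of foreign RNA is engaged. The IFIT proteins bind RNA and restrict viruses, mostly by blocking translation of RNA with foreign ends.

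The genes lie side by side on chromosome 10. In the RefSeq annotation of GRCh38.p14 they span 119 kb, from 89302046 to 89420997, with IFIT2 at 89302046 to 89309271, IFIT3 at 89327997 to 89340968, IFIT1 at 89392623 to 89406487 and IFIT5 at 89414568 to 89420997. IFIT1B, a relative of IFIT1 for which no probe was given, lies between IFIT3 and IFIT1 at 89378056 to 89385205. Whether an IFIT1 probe also reads IFIT1B or the pseudogene IFIT1P1 on chromosome 13 was not tested.

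Because the IFIT1, IFIT2 and IFIT3 probes were high on the same arrays, the promoter sequences of the cluster are shown, with IFIT5, of smaller range, beside them, for the genes matched in the RefSeq promoter table (IFIT1, IFIT3 and IFIT5 of the 4 genes). Each line gives the 250 bases before an annotated start, plus strand, 5′ to 3′, GRCh38.p14. Capitals mark matches to GAAANNGAAA, a core of the interferon-stimulated response element, searched on both strands, where it reads TTTCNNTTTC.
IFIT1, chr10:89392373-89392622: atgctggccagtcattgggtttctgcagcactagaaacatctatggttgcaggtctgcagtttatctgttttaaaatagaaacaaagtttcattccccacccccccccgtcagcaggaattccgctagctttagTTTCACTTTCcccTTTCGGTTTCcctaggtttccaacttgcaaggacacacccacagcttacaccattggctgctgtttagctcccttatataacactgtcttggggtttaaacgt
IFIT3, upstream start, chr10:89327747-89327996: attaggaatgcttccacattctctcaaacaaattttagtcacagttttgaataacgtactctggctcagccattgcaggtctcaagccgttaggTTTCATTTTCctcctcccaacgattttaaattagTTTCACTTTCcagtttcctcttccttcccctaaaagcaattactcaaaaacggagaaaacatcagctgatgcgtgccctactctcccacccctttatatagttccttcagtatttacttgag
IFIT3, downstream start, chr10:89332279-89332528: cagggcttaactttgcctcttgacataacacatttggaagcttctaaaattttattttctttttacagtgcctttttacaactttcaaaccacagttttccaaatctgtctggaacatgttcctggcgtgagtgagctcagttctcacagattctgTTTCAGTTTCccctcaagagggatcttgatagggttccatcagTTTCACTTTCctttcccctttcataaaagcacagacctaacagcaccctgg
IFIT5, chr10:89414318-89414567: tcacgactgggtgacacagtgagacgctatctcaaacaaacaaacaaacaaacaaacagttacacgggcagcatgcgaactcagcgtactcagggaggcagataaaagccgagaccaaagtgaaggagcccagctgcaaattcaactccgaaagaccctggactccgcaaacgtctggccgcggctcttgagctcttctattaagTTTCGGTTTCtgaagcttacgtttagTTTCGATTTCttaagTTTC

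All 4 windows of these genes held the core, and it lay in the TTTCNNTTTC orientation in each. IFIT1 had 2 matches, beginning 116 and 103 bases before the start. Both IFIT3 windows had 2 matches, and IFIT5 had 3, the last of which begins 4 bases before the start and runs past the end of the line printed. Of all 35116 promoter windows of 300 bases in the table, 1255 (3.57%) held the core and 91 (0.259%) held 2 or more matches. The window of IFIT1B held none. A match is a run of letters and no measurement of binding.

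The arrays detected similar numbers of probes but differed in brightness. Between 14304 and 15775 probes per array passed a detection p under 0.01, the chance that a probe without target would be as bright. The mean raw signal was 270 on the miRNA combination array and 223 on the siRNA combination array, against 343 to 468 on the other 7, and median scaling was tried as an alternative. Levels were therefore background corrected and quantile normalized together, and are given as log2 normalized levels. All 7 IFIT probes were detected on 7 arrays. On the miR-181a array 4 were detected, and on the negative control array 5. Levels are compared between arrays for 1 probe at a time, since the brightness of 2 different probes is not comparable.

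IFIT1 binds RNA whose cap lacks ribose methylation and blocks its translation. Its brighter probe, ILMN_1707695, stood at 12.29 with miR-32, 12.01 with miR-455, 9.43 with miR-181a, 12.99 with miR-181b, 13.10 with the miRNA combination, 12.33 with siPIK3R1, 13.82 with siPIK3R3, 14.03 with the siRNA combination and 9.68 with the negative control, with a detection p of 0 throughout. Only miR-181a lay near the control, and the remaining 7 transfections were all above both. In raw intensity this probe read 15644 in siPIK3R3 and 10857 in the siRNA combination, against 952 in the negative control.

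The second IFIT1 probe, ILMN_1699331, was dim. It stood at 6.28 with miR-32, 6.39 with miR-455, 8.12 with miR-181b, 8.40 with the miRNA combination, 7.03 with siPIK3R1, 8.60 with siPIK3R3 and 10.00 with the siRNA combination, with a detection p of 0 on each. It was not detected in miR-181a (detection p 0.0766) or in the negative control (0.129), so its differences from the control are lower bounds. It was at least 18.7-fold above the control in the siRNA combination and at least 7.06-fold in siPIK3R3, while in miR-32 the bound was only 1.42-fold.

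IFIT2, which binds AU-rich RNA and pairs with the other family members, had 1 probe. ILMN_1739428 stood at 10.71 with miR-32, 10.57 with miR-455, 8.12 with miR-181a, 12.17 with miR-181b, 12.21 with the miRNA combination, 11.37 with siPIK3R1, 13.32 with siPIK3R3, 13.95 with the siRNA combination and 8.46 with the negative control, detected with a p of 0 on every array. The 9 arrays fell in the same order as for the brighter IFIT1 probe, with siPIK3R1 further above miR-32. The siRNA combination was 45.0-fold above the control and siPIK3R3 29.2-fold.

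IFIT3, a scaffold that binds IFIT1 and IFIT2 and stabilizes IFIT1, had 3 probes. ILMN_1701789 stood at 10.59 with miR-32, 10.18 with miR-455, 7.20 with miR-181a, 11.63 with miR-181b, 11.35 with the miRNA combination, 10.79 with siPIK3R1, 13.08 with siPIK3R3, 13.33 with the siRNA combination and 7.82 with the negative control. ILMN_2239754 stood at 8.24 with miR-32, 8.45 with miR-455, 6.54 with miR-181a, 10.66 with miR-181b, 10.94 with the miRNA combination, 10.35 with siPIK3R1, 10.51 with siPIK3R3, 12.71 with the siRNA combination and 6.72 with the negative control. Both were detected with a p of 0 on every array, and both were lowest in miR-181a and highest in the siRNA combination. They parted at siPIK3R3, which was next to highest for ILMN_1701789 but below miR-181b and the miRNA combination for ILMN_2239754.

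The third IFIT3 probe followed ILMN_2239754. ILMN_1664543 stood at 6.72 with miR-32, 7.04 with miR-455, 9.63 with miR-181b, 9.28 with the miRNA combination, 8.55 with siPIK3R1, 9.22 with siPIK3R3, 11.43 with the siRNA combination and 5.82 with the negative control (detection p 0.00649). In miR-181a it was not detected, with a p of 0.0390. Here siPIK3R3 lay below miR-181b, as for ILMN_2239754 with quantile normalization.

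IFIT5, which binds single-stranded RNA with a triphosphate end, had the smallest range. ILMN_1696654 stood at 5.95 with miR-32, 6.35 with miR-455, 6.67 with miR-181b, 6.91 with the miRNA combination, 6.25 with siPIK3R1, 7.44 with siPIK3R3 and 7.50 with the siRNA combination. It was not detected in miR-181a (detection p 0.471) or in the negative control (0.0922). Its level spanned at least 1.72 on the log2 scale, against at least 4.23 for each of the other 6 probes. Its raw intensity was 245 in siPIK3R3 and 142 in the siRNA combination, against 109 in the negative control.

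**Figure D1:**
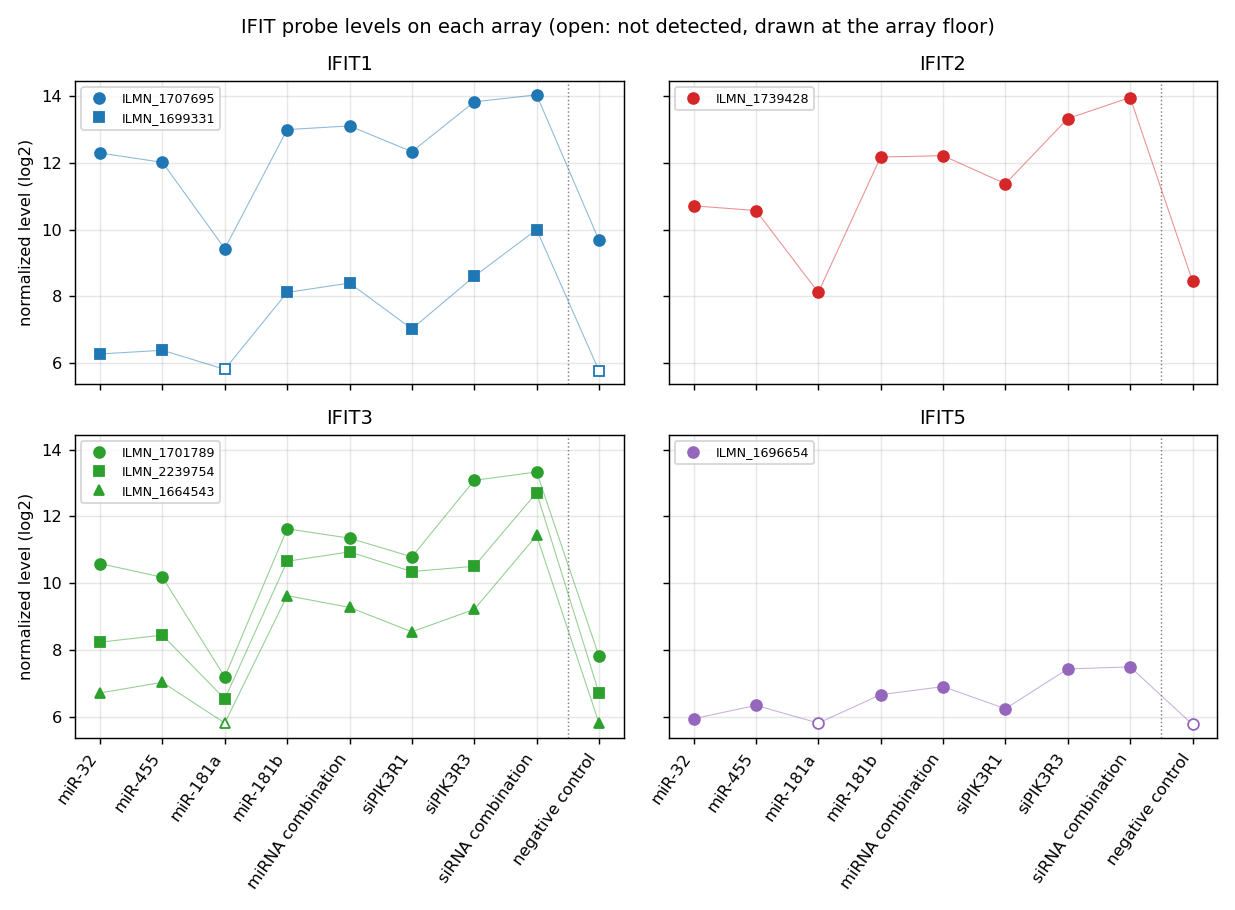
Normalized log2 level (y axis) of each IFIT probe on the 9 arrays (x axis, 1 array per transfection, negative control at the right), 1 panel per gene, with thin lines joining the values of 1 probe and open symbols for arrays where the probe was not detected. The miR-181a values lie beside those of the negative control, and the siRNA combination is the highest array for all 7 probes, by as little as 0.05 over siPIK3R3 for IFIT5.

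Against the negative control, IFIT probes were higher in 7 of the 8 transfections. A probe was compared where it was detected on at least 1 of the 2 arrays, an undetected value was raised to the dimmest detected level of its array, and a probe counted as different at 2-fold, a log2 difference of 1. The 8 comparisons share the control array, so they are not independent of each other. Over all probes compared the median log2 difference lay between -0.03 and 0.01 in each of them.

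In the siRNA combination all 7 IFIT probes were at least 2-fold above the control, where 6.53% of all 16413 probes compared were. The median log2 difference of the 7 was 5.49, and ILMN_2239754 of IFIT3 (63.7-fold) was the fourth highest of all probes compared. In siPIK3R3 all 7 were higher, against 3.53% of all probes, with a median of 3.79. There ILMN_1701789 of IFIT3 (38.3-fold) ranked 6 and IFIT2 ranked 9 of 15918. In siPIK3R1, 6 of 7 were higher, against 2.97% of all probes, with a median of 2.73, and the exception was IFIT5 at a bound of 0.48. The dim IFIT1 probe ILMN_1699331, at a bound of 1.26 there, had 0.74 without background correction and 0.94 with median scaling, both under 2-fold.

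Among the microRNAs, miR-181b had 6 of 7 IFIT probes at least 2-fold higher, against 1.95% of all probes, with a median log2 difference of 3.71. The exception was IFIT5, whose bound was 0.90, and it passed 2-fold with a detection p under 0.05, with no detection filter and in the authors' processed values. In the miRNA combination all 7 were higher, against 4.32% of all probes, with a median of 3.46. ILMN_2239754 of IFIT3 was 15.3-fold above the control in miR-181b and 18.6-fold in the miRNA combination, rank 5 of the probes compared in both. IFIT5 in the combination, at a bound of 1.13, had 0.66 without background correction.

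The differences were smaller in miR-32 and miR-455. In miR-32, 4 of 7 IFIT probes were at least 2-fold higher, against 0.505% of all probes, with a median log2 difference of 1.52. There ILMN_1664543 of IFIT3, at 0.90, had 1.21 with median scaling and 1.19 in the authors' processed values, both past 2-fold. In miR-455 the count was 5 of 7, against 0.596%, with a median of 1.73, and ILMN_1664543 of IFIT3, at 1.22 there, had 0.72 without background correction. The brighter IFIT1 probe was 6.10-fold above the control in miR-32 and 5.03-fold in miR-455, and IFIT2 was 4.76-fold and 4.32-fold above it. Few probes differed more, since these values ranked 10 and 17 of 16449 in miR-32 and 15 and 17 of 16096 in miR-455.

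The miR-181a array showed no such increase. Of the 5 IFIT probes compared none was 2-fold higher or lower, where 0.284% of all 15871 probes were higher and 0.529% lower. ILMN_1701789 of IFIT3 had a log2 difference of -0.62, IFIT2 of -0.34, the brighter IFIT1 probe of -0.25 and ILMN_2239754 of IFIT3 of -0.18. Of all probes compared, 3.3% were as low as the first of these and 26.1% as low as the last. The third IFIT3 probe was undetected in miR-181a, so its 0.00 is an upper bound, and the dim IFIT1 probe and IFIT5 were detected on neither array.

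**Figure D2:**
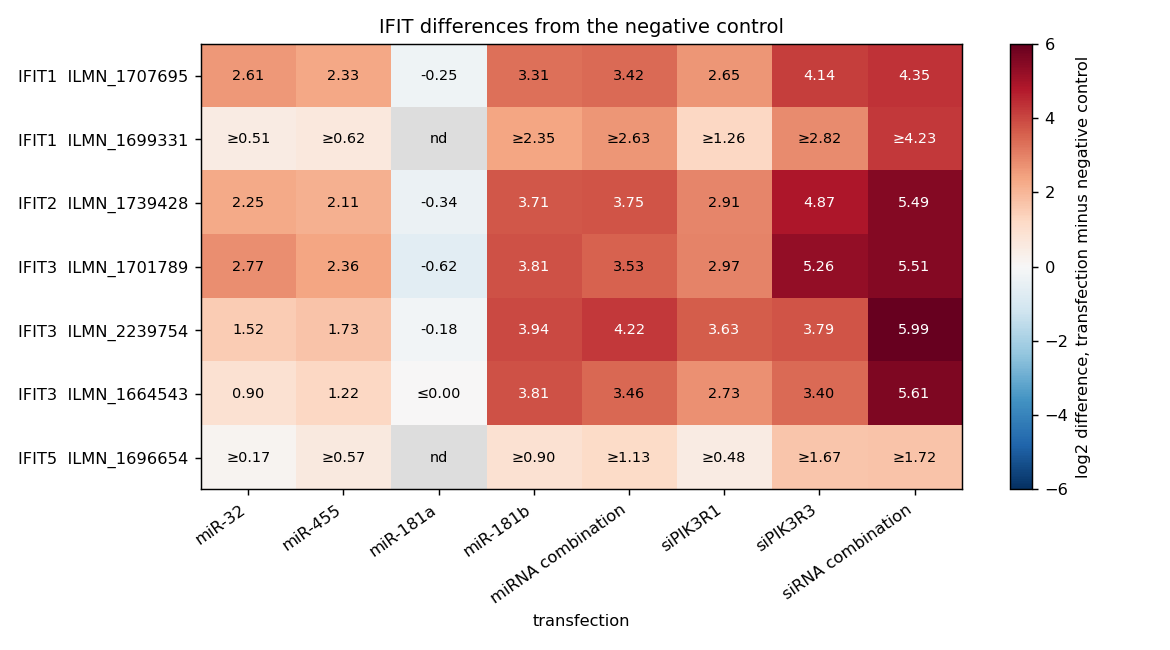
Log2 difference from the negative control (colour and printed value) for the 7 IFIT probes (rows) in the 8 transfections (columns). A bound is marked ≥ where the control was undetected and ≤ where the transfection was, and nd means detected on neither array. The miR-181a column stays between -0.62 and 0.00, while the siRNA combination column runs from 1.72 to 5.99.

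**Figure D3:**
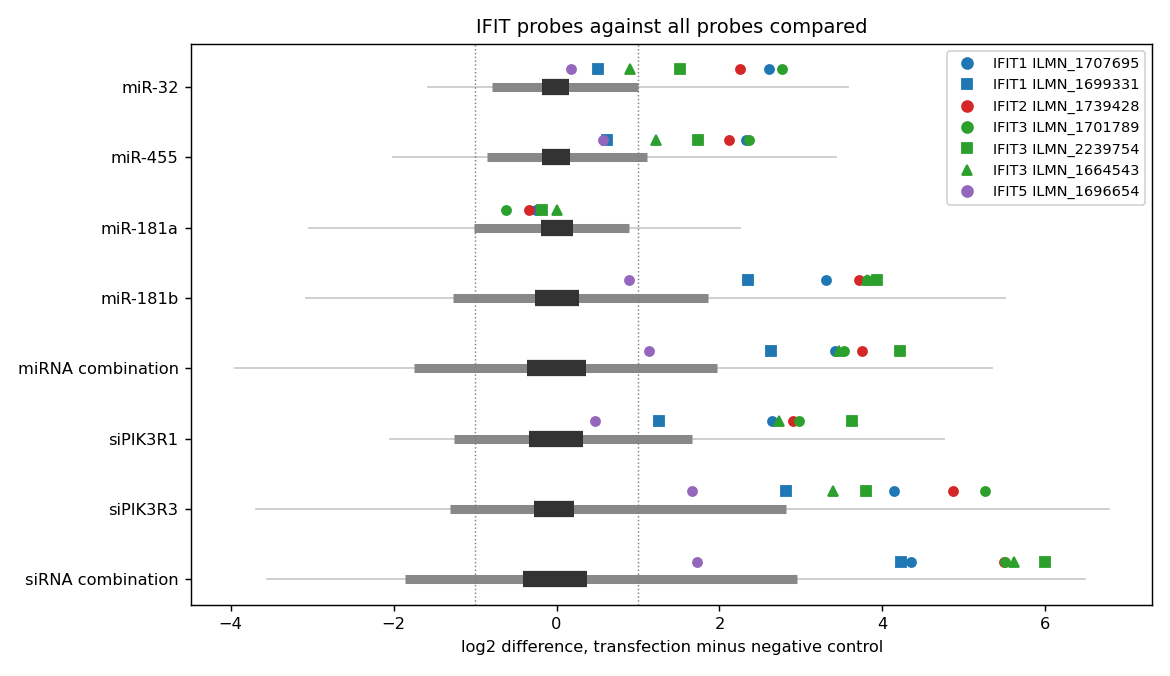
Log2 difference from the negative control (x axis) of the IFIT probes (symbols) and of all probes compared, with a thin line for their full range, a grey bar for the percentiles 0.5 to 99.5 and a dark bar for 25 to 75, in each transfection (y axis). Dotted lines mark 2-fold. The brighter IFIT1 probe, IFIT2, and ILMN_1701789 and ILMN_2239754 of IFIT3 lie right of the grey bar in all transfections but miR-181a.

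Single microRNAs were compared next. Mature sequences are shown because miR-181a-5p and miR-181b-5p share a seed, bases 2 to 8, in capitals, while the IFIT levels of the miR-181a and miR-181b arrays differ. The labels name no arm, so the 5p forms are shown for miR-181, along with miR-32-5p and both arms of miR-455, from RefSeq annotation of GRCh38.p14.
hsa-miR-181a-5p: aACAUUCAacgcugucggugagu
hsa-miR-181b-5p: aACAUUCAuugcugucggugggu
hsa-miR-32-5p: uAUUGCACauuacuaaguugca
hsa-miR-455-5p: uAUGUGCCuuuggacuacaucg
hsa-miR-455-3p: gCAGUCCAugggcauauacac

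Counted from 1 at the 5′ end, miR-181b-5p differs from miR-181a-5p at 3 bases (A9U, C10U and A21G), all outside the seed. No arm of miR-32 or miR-455 shares a seed with miR-181a, miR-181b or each other. Between these 2 arrays, 6 of 7 IFIT levels in miR-181b lay 2-fold or more above those in miR-181a, against 3.16% of all 15738 probes compared. The median log2 difference of the 7 was 3.81. ILMN_1701789 of IFIT3 was 21.6-fold higher in miR-181b and ranked 3 of all probes, and IFIT2 was 16.5-fold higher. IFIT5 had a bound of 1.80-fold, and it passed 2-fold in the authors' processed values, at 1.12 on the log2 scale.

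Between miR-32 and miR-455, of unrelated seeds, the IFIT probes had log2 differences of -0.40 to 0.41. None of the 7 reached 2-fold, where 0.0244% of all probes were 2-fold higher in miR-32 and 0.0183% lower, so a count of 0 is near the share over all probes. Set against miR-32, miR-181a was at least 2-fold lower at 4 of 7 IFIT probes, where 0.498% of all probes were. ILMN_1701789 of IFIT3 differed by -3.39, the brighter IFIT1 probe by -2.86, IFIT2 by -2.59 and ILMN_2239754 of IFIT3 by -1.70. ILMN_1664543 of IFIT3, at a bound of -0.90, had -1.19 with median scaling, past 2-fold.

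Between the miRNA combination and miR-181b the IFIT probes had log2 differences of -0.35 to 0.28. None of the 7 reached 2-fold, where 0.964% of all probes were 2-fold higher in the combination and 1.29% lower, so a count of 0 is near the share over all probes. Over miR-181a the combination was higher at 7 of 7 probes (5.25% of all probes), over miR-455 at 6 of 7 (3.85%) and over miR-32 at 4 of 7 (3.98%). ILMN_1701789 and the brighter IFIT1 probe were 1.69-fold and 1.76-fold above miR-32 in the combination, and IFIT5 1.94-fold. In the authors' processed values IFIT5 passed 2-fold over miR-32, at 1.28 on the log2 scale. With median scaling the log2 difference of IFIT2 from miR-32 was 0.98, and those of ILMN_1707695 and ILMN_1701789 from miR-455 were 0.68 and 0.81, all under 2-fold. IFIT5 was 0.63 above miR-181a without background correction and 0.98 with median scaling.

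The siRNA arrays differed by unlike amounts from probe to probe. In siPIK3R3, 5 of 7 IFIT probes were at least 2-fold above siPIK3R1, against 5.84% of all 15829 probes compared. ILMN_1701789 of IFIT3 was 4.88-fold higher in siPIK3R3, IFIT2 3.89-fold, the IFIT1 probes 2.81-fold and 2.96-fold, and IFIT5 2.28-fold. Without background correction IFIT5 was under 2-fold, at 0.77 on the log2 scale. The other IFIT3 probes gave 1.58-fold (ILMN_1664543) and 1.12-fold (ILMN_2239754), which ranked 6059 of all probes. With median scaling ILMN_1664543 passed 2-fold, at 1.13 on the log2 scale.

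The siRNA combination was above siPIK3R1 at 7 of 7 IFIT probes, against 3.29% of all probes, by 2.37-fold (IFIT5) up to 7.85-fold (ILMN_1699331 of IFIT1), and IFIT5 had 0.81 on the log2 scale without background correction. Over siPIK3R3 it was at least 2-fold higher at 3 of 7, against 4.78%. These were ILMN_1664543 (4.65-fold) and ILMN_2239754 (4.60-fold) of IFIT3 and the dim IFIT1 probe ILMN_1699331 (2.65-fold). With median scaling in place of quantile normalization ILMN_1699331 had 0.92 on the log2 scale, under 2-fold. The log2 differences of the brighter IFIT1 probe (0.21), ILMN_1701789 of IFIT3 (0.25) and IFIT5 (0.05) were small, and with median scaling they were -0.09, -0.25 and -0.39. Which array was highest thus depended on the scaling. The siRNA combination was highest for 7 probes as normalized, 6 in the authors' processed values, 4 with median scaling and 3 in raw intensity, and siPIK3R3 was highest for the rest.

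**Figure D4:**
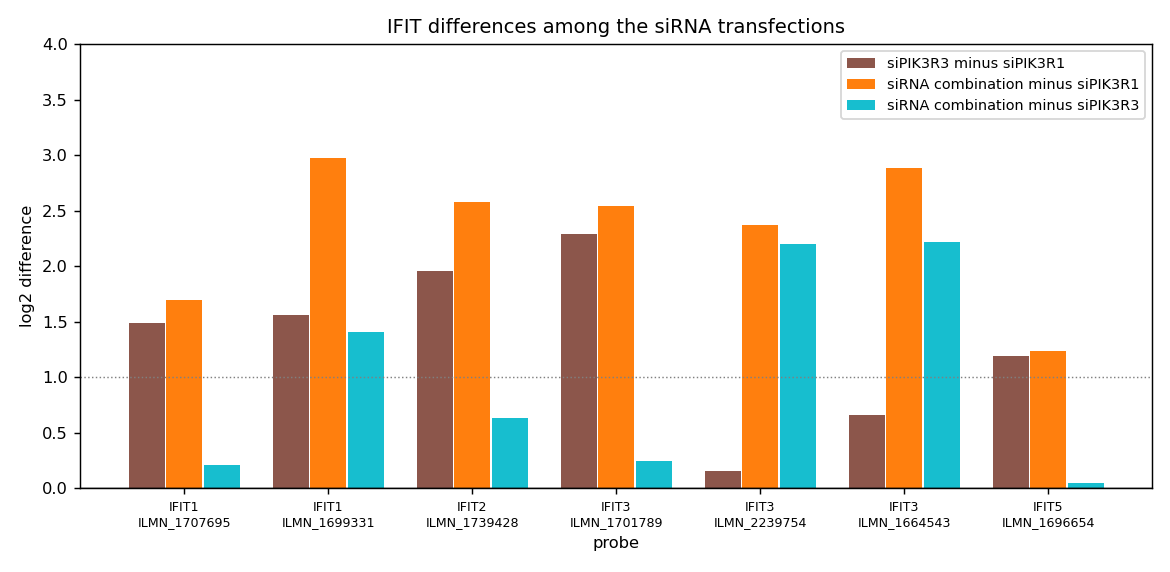
Log2 differences (y axis, bars from 0) of the 7 IFIT probes (x axis) between the siRNA arrays, with 1 bar per pair of arrays and a dotted line at 2-fold. For ILMN_2239754 and ILMN_1664543 of IFIT3, siPIK3R3 minus siPIK3R1 is small (0.16 and 0.66) beside the combination minus siPIK3R3 (2.20 and 2.22), while for ILMN_1701789 of the same gene the first is 2.29 and the second 0.25.

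Between the combinations, 5 of 7 IFIT probes were at least 2-fold higher in the siRNA than in the miRNA combination, against 1.78% of all 16201 probes, with a median log2 difference of 1.74. The largest was ILMN_1664543 of IFIT3 at 4.44-fold. The brighter IFIT1 probe was 1.90-fold higher in the siRNA combination and IFIT5 by 0.59 on the log2 scale. In the authors' processed values that IFIT1 probe passed 2-fold, at 1.13 on the log2 scale.

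Probes of the same gene did not always run in parallel. Profiles over the 9 arrays, each centred on its own mean, were compared by their root mean square distance on the log2 scale. ILMN_1701789 of IFIT3 lay 0.77 from ILMN_2239754 and 0.85 from ILMN_1664543, while those 2 lay 0.33 apart. The nearest family member to ILMN_1701789 was the IFIT2 probe, at 0.25. The 2 IFIT1 probes lay 0.77 apart, and the dim one was undetected on 2 arrays, where its level was raised to the dimmest detected level. On arrays where both were detected, their log2 differences lay 0.07 apart for siPIK3R3 against siPIK3R1. They lay 1.20 apart for the siRNA combination against siPIK3R3. Whether the IFIT3 probes read different transcripts, of which RefSeq lists 4, was not tested.

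Some probes outside the family had profiles close to it. Among 14630 other probes detected on at least 5 arrays, the median distance to the median IFIT profile was 1.70. That centred profile ran from -2.76 in miR-181a to 2.67 in the siRNA combination, so a probe with a flat profile also lies far from it. The nearest 10, picked as the smallest distances, lay at 0.33 to 0.50. The files give these probes no gene names, and 9 arrays of one experiment share their culture conditions. ILMN_2388547, the nearest, was undetected in the control and at least 5.78 above it on the log2 scale in the siRNA combination, 4.84 in siPIK3R3, 3.90 in miR-181b and 2.58 in miR-32. ILMN_1781373, at 0.37, was 5.17, 4.75, 3.50 and 2.69 above the control in the same arrays. Its difference in miR-181a was 0.21.

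The brighter IFIT1 probe was nearer to ILMN_1760062 (0.18), ILMN_1658247 (0.21) and ILMN_1675640 (0.24) than to any other member, the closest of which was IFIT2 at 0.45. Outside the family, the nearest to IFIT2 were ILMN_2388547 (0.22), ILMN_1781373 (0.32) and ILMN_1675640 (0.33). To ILMN_1701789 of IFIT3 they were ILMN_2410826 (0.33), ILMN_1675640 (0.33) and ILMN_2388547 (0.36). The IFIT2 probe and ILMN_1701789 lay 0.25 from each other, nearer than all of these but ILMN_2388547 to IFIT2. ILMN_1675640 was thus among the 3 nearest outside the family for IFIT1, IFIT2 and IFIT3. IFIT5, with its small range, lay closest to ILMN_1723486 (0.07), ILMN_1697971 (0.16) and ILMN_1736510 (0.18). Of these, ILMN_1723486 was 1.63 above the control in the siRNA combination and 1.43 in siPIK3R3.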

How the data were processed

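Expression was measured on Illumina arrays in 9 KYSE30 cultures, 1 array per group, from biotin-labeled cRNA per the labels' protocols. The deposited raw table holds linear signal intensity per probe and array, with no normalization recorded, and, per the file headers, a detection p-value beside it. A detection p-value of 0 is below 0.0013, the smallest above 0 in the table. The authors also deposited processed intensity values, background subtracted and scaled to an equal mean judging by the values, with a method not given in the sources used here. They served as an alternative.

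The function neqc in limma 3.58.1, run in R 4.3.3 on all 9 arrays together, corrected the raw values for background, added an offset of 16, quantile normalized them and took log2. Other steps used Python 3.11.15, numpy 2.4.6 and pandas 2.3.3. The size rule was tested on simulated data with changes in bright probes only. That says nothing of dim probes or of differences between cultures. With 1 array per group no test and no p-value was computed.

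The members, gene lists and rules were chosen with earlier results of these data known. Beyond the members, the rule named the 10 probes nearest to the median IFIT profile and the 3 nearest to each gene's brightest probe. The planned interferon pathway lists, cell type markers and siRNA target genes need gene names for other probes and were not analysed here. Alternatives changed the background correction, offset, scaling, source of values, reference array, detection filter, threshold and normalized arrays.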

Additional observations from a re-analysis of the deposited data

How the results depend on the processing

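Against the control and outside miR-181a, the IFIT differences kept their sign in all 378 values from 8 alternatives that use 1 array as reference, among them the miR-181a array, a reference chosen after seeing the data. Another alternative took the median of the other 8 arrays as reference, a level that is itself high for these probes. There the counts of probes at least 2-fold higher were 0 for miR-32, 0 for miR-455, 0 for siPIK3R1 and 4 for the miRNA combination. The share of all probes was not computed in that setting. Some IFIT probes were instead more than 2-fold lower in miR-32 and in miR-455. In that setting all 7 log2 differences were below 0 in miR-32, among them -0.37 (ILMN_1707695), -1.06 (ILMN_1739428), -0.48 (ILMN_1701789) and -2.19 (ILMN_2239754). All 7 were below 0 in miR-455 too, with -0.65, -1.20, -0.89 and -1.98 for the same probes and -1.85 for ILMN_1664543. In siPIK3R1 they were -0.31 (ILMN_1707695), -0.23 (ILMN_1699331), -0.07 (ILMN_1739428), -0.18 (ILMN_1701789) and -0.26 (ILMN_1696654), and stayed above 0 at 0.87 (ILMN_2239754) and 0.43 (ILMN_1664543). At 1.5-fold, 7 probes rather than 4 were higher in the miRNA combination than in miR-32. The share of all probes at 1.5-fold was not computed, so the 7 cannot be set against it. The other 155 counts stayed within 1.5 times. For miR-181a against the control the count held only probes that were higher, and it was 0 in every setting. With the median of the other 8 arrays as reference, all IFIT probes compared in miR-181a were more than 2-fold lower. Their median log2 difference was -3.23 there, against -0.25 with the control as reference. Without background correction the differences of dim probes shrank, for ILMN_1664543 in the siRNA combination to 4.59, against 5.61. Of the 10 probes nearest to the family, 7 were also nearest without background correction, and the core motif followed by CT was in the 4 windows of IFIT1, IFIT3 and IFIT5, not in that of IFIT1B, and in 0.273% of all windows. The pathway lists, at probe or gene level, were not run. No paired analysis was possible because there is only 1 array in every group. Signal near background limits IFIT5 and ILMN_1699331, and the number of arrays limits every value.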
